A study of Mus musculus with 48 samples.

Results

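The data described here came from the colon of mice that lack the clock gene *Bmal1* in the intestinal epithelium, compared at the start and shortly after the middle of the circadian cycle. The group at circadian time 13 (CT13) held 4 mice, SV395, SV448, SV449 and SV450, and the group at CT1 held 4 mice, SV384, SV385, SV479 and SV480, chosen from 48 mice in the whole series by the genotype and time in their labels. All 55401 genes of the counts table were considered. The mice, called *Bmal1*IEC-/-, were *Bmal1*fl/fl animals that carried 1 copy of a Cre recombinase gene driven by the *Villin* promoter, which is active in epithelial cells of the gut. Control mice were littermates of the same *Bmal1*fl/fl genotype without Cre (*Villin* wt/wt), 4 at CT1 and 4 at CT13. All were male, 18 to 20 weeks old, on a C57BL/6J background and single-housed with a running wheel and free access to chow, and were killed on the second day of constant darkness after entrainment to light and dark. CT1 is the start of the subjective day, when these nocturnal animals rest, and CT13 is the start of the subjective night, when they become active. The question the comparison addresses is which colon transcripts still differ between these times when the epithelium has no working clock of its own.

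As background, the mammalian clock is a transcriptional loop. BMAL1 (encoded by *Arntl*) pairs with CLOCK or NPAS2, binds E-box sequences and turns on *Per*, *Cry*, *Nr1d1*, *Nr1d2*, *Dbp*, *Tef* and *Hlf*. PER and CRY proteins then block BMAL1, and NR1D1 and NR1D2 repress *Arntl* itself. Tissue clocks are also timed from outside, by glucocorticoids, body temperature and feeding, and in the gut they accompany daily rounds of epithelial cell division, lipid synthesis and secretion. The samples here were pieces of colon tissue rather than sorted epithelium, so smooth muscle, fibroblasts, vessels, nerves and immune cells with an intact *Bmal1* gene contributed RNA. In such tissue a lower value can mean fewer cells of a type or less RNA per cell, and these cannot be told apart.

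The 8 libraries held 3271891 to 4785844 counts each, and expression levels are given as counts per 1000000 (CPM) after TMM scaling over the 48 mice. Libraries SV384 and SV385 stood apart from the rest. Long intergenic non-coding RNA made up 0.241% and 0.209% of their counts, against 0.372% to 0.591% in the other 46 mice, and their *Neat1* levels of 321 and 344 CPM lay below the 1005 to 2601 CPM of the others. SV385 was also low in smooth muscle markers, with a summed level of 1063 CPM against 3790 to 6520 CPM in the 46 mice, in fibroblast markers (419 against 874 to 1736 CPM), in endothelial markers (48.7 against 109.9 to 184 CPM) and in macrophage markers (57.7 against 97.2 to 227 CPM). SV384 and SV385 correlated with the other 6 mice with Pearson's r of 0.932 to 0.962 over genes, whereas the 6 correlated with each other with r of 0.968 to 0.984. Each result is therefore given for all 8 mice and for the 6 mice without these 2. The tissue label fitted the markers, since the 11 epithelial markers summed to 10189 to 16360 CPM in the 8 mice and those of goblet cells to 16079 to 20341 CPM.

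Across all genes, a minority differed between CT13 and CT1. A gene was called when edgeR's quasi-likelihood test gave a Benjamini-Hochberg adjusted p under 0.05 and the fold change was at least 1.5. With all 8 mice, 141 of 13183 genes tested were higher at CT13 (1.07%) and 231 were lower (1.75%). Without SV384 and SV385, 247 of 13874 genes were higher (1.78%) and 348 were lower (2.51%). The 2 sets shared 272 genes, 97 higher and 175 lower with none of opposite sign, which is 73.1% of the calls with 8 mice and 45.7% of the calls with 6. As the 6 mice are part of the 8, the 2 sets are not independent. The median log2 fold change over all genes tested was 0.00282 with 8 mice and 0.0134 with 6. The counts depended on single mice. Leaving out any 1 of the 4 CT13 mice gave 38 to 60 higher and 81 to 138 lower genes in place of 141 and 231, leaving out SV384 gave 90 higher and leaving out SV480 gave 219 higher. Of the 6-mouse calls, 47 of the 247 higher and 92 of the 348 lower genes stayed called without SV479, and 104 and 180 without SV480, when a single CT1 mouse remained and was assumed to vary like the CT13 mice.

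The targeted gene is described first. *Arntl* (ENSMUSG00000055116.8, chromosome 7, 113207465 to 113314126, GRCm38) measured 27.8, 25.3, 44.7 and 47.2 CPM at CT1 and 28, 32.1, 33.8 and 26.6 CPM at CT13, each time in the order SV384, SV385, SV479, SV480 and SV395, SV448, SV449, SV450, an order kept throughout. The CT13 values overlapped those of the 2 libraries that stood apart and lay below those of the other CT1 mice. The comparison gave a log2 fold change of -0.26 ± 0.20 (SE, adjusted p = 0.472) over the 8 mice and of -0.60 ± 0.13 (adjusted p = 0.00949) over the 6, so *Arntl* was called lower over the 6 mice and not over the 8, and the 6-mouse call was lost without SV395, SV450, SV479 or SV480 in turn (highest adjusted p = 0.105). Control colon fell from 67.5 ± 4.5 CPM at CT1 to 7.8 ± 2.7 CPM at CT13 (mean ± SD, n = 4). Counts were summed over whole genes, so transcripts from which a floxed exon had been removed were still counted, and the level of *Arntl* is no measure of the deletion. The partners of BMAL1 differed little: *Npas2* gave a log2 fold change of 0.25 ± 0.09 (SE, adjusted p = 0.153) over the 8 mice and of 0.33 ± 0.10 (adjusted p = 0.043) over the 6, and *Clock* gave a log2 fold change of -0.09 ± 0.12 (SE, adjusted p = 0.696) over the 8 mice and of -0.24 ± 0.11 (adjusted p = 0.182) over the 6. Neither passed both thresholds.

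Many genes of the clock loop were higher at CT13 in *Bmal1*IEC-/- colon. Of 24 genes on a core clock list, 22 were expressed enough to be tested (*Rorb* and *Fbxl21* were not), and 12 were called higher and 0 lower with 8 mice, against 1.07% and 1.75% of all genes tested, with a median log2 fold change of 0.66. With 6 mice 10 were called higher and 1, *Arntl*, lower, against 1.78% and 2.51% of all genes, with a median of 0.51. In control colon, where 1284 of 13320 genes were called higher at CT13 (9.64%) and 1395 lower (10.5%), 13 of 21 tested clock genes were higher and 4 lower. With single mice left out, 9 to 12 of the 12 genes stayed called with 8 mice, and 5 to 10 of the 10 higher genes with 6, the lowest without SV479.

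E-boxes and D-boxes are the sequences that BMAL1 and its output factors are known to bind. An exact E-box (CACGTG, the same on both strands) was found in the RefSeq promoters (GRCm38.p6, 250 bases before to 50 after the start) of 5 of the 19 core clock genes that had one in the table (26.3%), against 8.09% of all 27025 genes with a promoter and 11.5% of the 10057 tested genes with one. A D-box (TTATGTAA, either strand), the site of DBP, TEF and HLF, was found for 1 of 19 clock genes (5.26%) and 1.11% of all genes. The promoters of 3 called clock genes are printed to show these matches. Each line gives the 250 bases before the start, 5′ to 3′, with E-boxes (*Per1*, *Ciart*) or D-boxes (*Per3*) in capitals.
Per1 (chr11:69098699-69098948, plus strand): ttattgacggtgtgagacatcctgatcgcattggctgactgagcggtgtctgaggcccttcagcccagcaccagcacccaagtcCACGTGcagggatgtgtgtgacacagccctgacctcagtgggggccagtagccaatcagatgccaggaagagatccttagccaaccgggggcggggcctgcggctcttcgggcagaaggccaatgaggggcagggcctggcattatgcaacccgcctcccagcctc
Ciart (chr3:95882229-95882478, minus strand): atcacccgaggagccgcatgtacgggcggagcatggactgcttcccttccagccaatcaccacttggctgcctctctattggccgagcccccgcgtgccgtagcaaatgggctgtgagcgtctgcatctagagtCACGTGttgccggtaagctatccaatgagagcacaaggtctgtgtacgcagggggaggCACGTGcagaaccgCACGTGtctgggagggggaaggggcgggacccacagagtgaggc
Per3 (chr4:151044666-151044915, minus strand): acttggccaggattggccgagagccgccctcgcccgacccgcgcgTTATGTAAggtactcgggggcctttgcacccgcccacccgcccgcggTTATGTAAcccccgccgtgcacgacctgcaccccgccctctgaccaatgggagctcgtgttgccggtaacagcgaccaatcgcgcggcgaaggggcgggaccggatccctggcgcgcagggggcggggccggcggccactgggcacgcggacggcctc
*Ciart* carried 3 E-boxes and *Per3* 2 D-boxes in this window, and *Per1* 1 E-box. Among the 71 genes with a promoter that were higher at CT13 in both fits, 9 held an E-box (12.7%), and among the 141 that were lower 18 did (12.8%), beside 11.5% of all tested genes. A match describes letters and does not show binding.

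The period genes encode the repressors that accumulate in the evening. *Per1* read 6.47, 14.4, 15.4 and 17.1 CPM at CT1 and 31.3, 62.2, 64 and 69.8 CPM at CT13, and *Per2* (chromosome 1, 91415982 to 91459324) read 32.4, 28.9, 49.4 and 49.6 CPM at CT1 and 114, 101, 96.3 and 117 CPM at CT13. In both genes every CT13 mouse exceeded every CT1 mouse. *Per1* gave a log2 fold change of 2.08 ± 0.29 (SE, adjusted p = 0.00514) over the 8 mice and of 1.81 ± 0.28 (adjusted p = 0.00127) over the 6, where the 6-mouse call was lost without SV479 (adjusted p = 0.0608), and *Per2* gave a log2 fold change of 1.42 ± 0.17 (SE, adjusted p = 0.0024) over the 8 mice and of 1.12 ± 0.11 (adjusted p = 5.19e-05) over the 6. *Per3* read 7.45, 6.31, 18.4 and 19.2 CPM at CT1 and 38, 58.2, 52.2 and 38.2 CPM at CT13. *Per3* gave a log2 fold change of 1.85 ± 0.31 (SE, adjusted p = 0.0111) over the 8 mice and of 1.31 ± 0.19 (adjusted p = 0.000898) over the 6, and SV384 and SV385 held the lowest values of all 8. The cryptochromes, which encode the partners of PER, moved less. *Cry2* was called with 8 mice (log2 fold change 0.67, adjusted p = 0.0437 with 8 mice, and 0.57, adjusted p = 0.00675 with 6) but not with 6, where its fold fell under 1.5, and it lost the call without SV384, SV395, SV448, SV449, SV450 and SV479 in turn (highest adjusted p = 0.136). *Cry1* had log2 fold changes of -0.35 (adjusted p = 0.15) with 8 mice and -0.28 (adjusted p = 0.0646) with 6 and was not called.

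The nuclear receptors that repress *Arntl* were higher at CT13 as well. *Nr1d1* measured 3.56, 3.01, 4.39 and 6.94 CPM at CT1 and 11.7, 17.4, 15.9 and 15 CPM at CT13, and no CT13 mouse overlapped a CT1 mouse. It gave a log2 fold change of 1.73 ± 0.26 (SE, adjusted p = 0.00735) over the 8 mice and of 1.4 ± 0.25 (adjusted p = 0.00357) over the 6, and the 6-mouse call was lost without SV479 (adjusted p = 0.112). *Nr1d2* rose from 15.3 ± 5.24 CPM to 44.9 ± 7.69 CPM (mean ± SD, n = 4). *Nr1d2* gave a log2 fold change of 1.55 ± 0.22 (SE, adjusted p = 0.00516) over the 8 mice and of 1.19 ± 0.17 (adjusted p = 0.000697) over the 6.

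Transcription factors that carry the output of the clock rose as well. *Dbp*, *Tef* and *Hlf* encode related PAR bZIP transcription factors that bind D-boxes. *Hlf* (chromosome 11, 90336536 to 90390895) read 4.21, 2.1, 3.57 and 3.74 CPM at CT1 and 17.1, 30.1, 29.5 and 18.6 CPM at CT13. *Hlf* gave a log2 fold change of 2.81 ± 0.28 (SE, adjusted p = 0.000746) over the 8 mice and of 2.7 ± 0.32 (adjusted p = 0.000211) over the 6. *Tef* read 50.5, 41.8, 57.6 and 49.4 CPM at CT1 and 108, 141, 134 and 108 CPM at CT13. *Tef* gave a log2 fold change of 1.31 ± 0.13 (SE, adjusted p = 0.000746) over the 8 mice and of 1.21 ± 0.13 (adjusted p = 0.000112) over the 6. The groups did not overlap in either gene, and SV385 was the lowest of the 8 mice in both. *Dbp* read 4.21, 2.71, 4.39 and 4.27 CPM at CT1 and 11.3, 15.7, 19.2 and 11.4 CPM at CT13. *Dbp* gave a log2 fold change of 1.88 ± 0.26 (SE, adjusted p = 0.00453) over the 8 mice and of 1.73 ± 0.29 (adjusted p = 0.00248) over the 6, with the 6-mouse call lost without SV479 (adjusted p = 0.0646). *Ciart* and *Bhlhe41*, repressors of BMAL1 activity, were expressed at low levels near the 0.626 to 0.971 CPM that 3 counts represent in these libraries. *Ciart* gave log2 fold changes of 2.06 (adjusted p = 0.0226) with 8 mice and 1.6 (adjusted p = 0.0329) with 6. *Bhlhe41* gave log2 fold changes of 2.04 (adjusted p = 0.00875) with 8 mice and 1.84 (adjusted p = 0.0184) with 6. The *Ciart* call was lost without SV384, SV448, SV449 and SV450 in turn (highest adjusted p = 0.0868), and with 6 mice both genes lost their calls without SV479 or SV480, *Ciart* also without SV449 (highest adjusted p = 0.214 for *Ciart* and 0.237 for *Bhlhe41*). DESeq2 gave no adjusted p for either gene, so it neither kept nor lost these calls. *Csnk1e*, a kinase that marks PER for degradation, was called with 8 mice only (log2 fold change 0.64, adjusted p = 0.0346 with 8 mice, and 0.46, adjusted p = 0.0492 with 6), and not without SV384, SV385, SV395, SV448, SV449 and SV450 in turn.

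**Figure D1:**
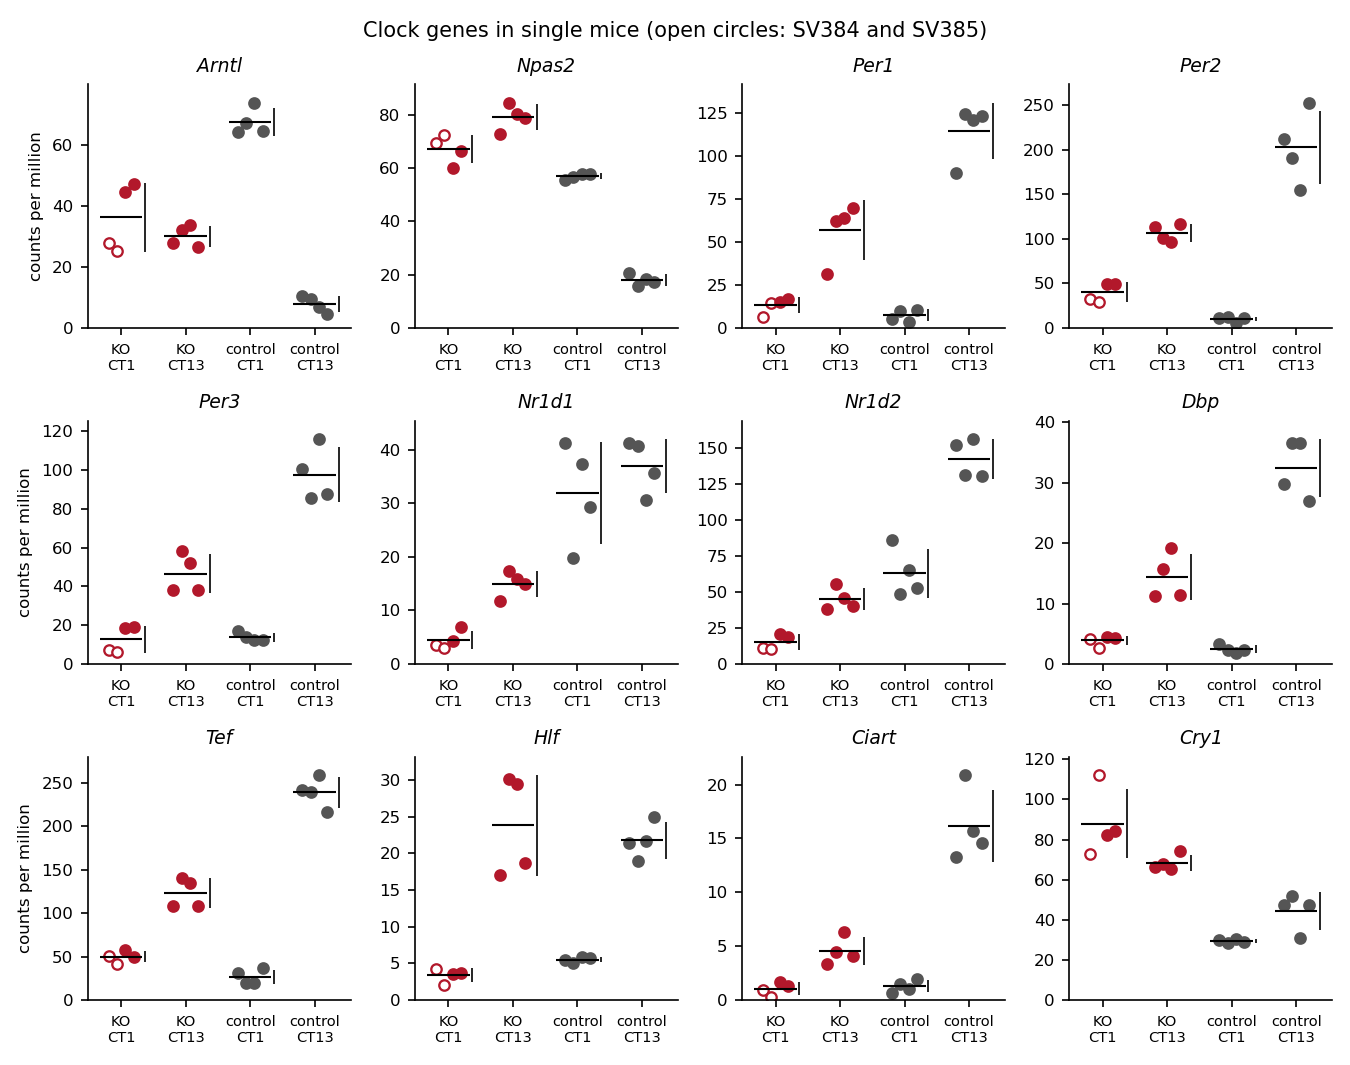
Expression of 12 clock genes in single mice (y axis, CPM, each panel from 0), for *Bmal1*IEC-/- (KO, red) and control colon (grey) at CT1 and CT13. Horizontal lines are means and vertical lines SD over 4 mice, and open circles mark SV384 and SV385. *Per1*, *Per2*, *Per3*, *Nr1d1*, *Nr1d2*, *Dbp*, *Tef*, *Hlf* and *Ciart* were higher at CT13 than at CT1 in every KO mouse, while KO *Arntl* stayed between 25.3 and 47.2 CPM.

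Other genes known as clock outputs followed in part. Of 13 tested members of a list of clock output genes, 5 were called higher and 0 lower with 8 mice (median 0.11). With 6 mice 6 were higher and 0 lower (median 0.14). The shares of all genes called higher were 1.07% with 8 mice and 1.78% with 6. Of the 5, 1 stayed called without SV449, 2 without SV450 and 3 without SV384, SV479, SV395 or SV448, and of the 6, 3 stayed called without SV479. *Fmo2*, a flavin monooxygenase, read 59.2, 13.2, 44.2 and 34.7 CPM at CT1 and 109, 169, 158 and 167 CPM at CT13. *Fmo2* gave a log2 fold change of 2.01 ± 0.32 (SE, adjusted p = 0.00807) over the 8 mice and of 1.94 ± 0.18 (adjusted p = 4.89e-05) over the 6. *Usp2*, a deubiquitinase, gave log2 fold changes of 0.78 (adjusted p = 0.0282) with 8 mice and 0.97 (adjusted p = 0.00232) with 6, and its 8-mouse call was lost without SV384, SV395, SV448, SV449, SV450 and SV479 in turn (highest adjusted p = 0.104). *Tspan4*, a tetraspanin, gave log2 fold changes of 1.59 (adjusted p = 0.0115) with 8 mice and 1.98 (adjusted p = 0.000372) with 6 and lost its call without SV449 and SV450 (highest adjusted p = 0.0548).

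Corticosterone, the main glucocorticoid of rodents, is known to be high around the onset of activity. Of 16 tested members of a glucocorticoid response list, 5 were higher and 0 lower with 8 mice (median 0.22), and 6 and 0 with 6 mice (median 0.57), against 1.07% and 1.78% of all genes called higher. Of the 5, 3 stayed called without SV449, and of the 6, 2 without SV479 and 3 without SV480. *Zbtb16* (PLZF), a zinc finger factor, read 1.62, 0, 2.74 and 2.13 CPM at CT1 and 16.3, 24.6, 11.1 and 23.2 CPM at CT13. The CT1 mice lay at 0 to 2.74 CPM, and the lowest CT13 mouse was several times above them. It had a log2 fold change of 3.49 ± 0.48 (SE, adjusted p = 0.00453) over the 8 mice and of 2.93 ± 0.39 (adjusted p = 0.000458) over the 6. *Fkbp5*, a co-chaperone of the glucocorticoid receptor, read 211, 270.2, 192 and 217 CPM at CT1 and 418, 399, 324 and 478 CPM at CT13. *Fkbp5* gave a log2 fold change of 0.88 ± 0.14 (SE, adjusted p = 0.00832) over the 8 mice and of 0.99 ± 0.13 (adjusted p = 0.000347) over the 6. *Tsc22d3* (GILZ), an anti-inflammatory mediator, gave log2 fold changes of 1.06 (adjusted p = 0.0137) with 8 mice and 0.99 (adjusted p = 0.00511) with 6 and lost its 8-mouse call without SV449 (adjusted p = 0.0531) and its 6-mouse call without SV479 or SV480 (highest adjusted p = 0.119). *Per1*, described above, belongs to this list too.

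Heat shock chaperones formed a smaller group. Of 19 tested members 4 were higher and 0 lower in both fits (medians 0.29 with 8 mice and 0.19 with 6). Of all genes, 1.07% were called higher with 8 mice and 1.78% with 6. In control colon 17 of 19 were higher, against 9.64% of all genes. *Hspa1b* read 10.4, 7.21, 7.41 and 7.74 CPM at CT1 and 79.9, 26.6, 21.6 and 59.1 CPM at CT13. *Hspa1b* gave a log2 fold change of 2.54 ± 0.41 (SE, adjusted p = 0.00875) over the 8 mice and of 2.64 ± 0.52 (adjusted p = 0.00596) over the 6. SV395 and SV450 were the higher pair at CT13 in *Hspa1b* and also in *Hsph1*, a nucleotide exchange factor of HSP70, which read 96.1, 57.4, 83.1 and 81.9 CPM at CT1 and 269, 150.3, 130.1 and 247 CPM at CT13. *Hsph1* gave a log2 fold change of 1.34 ± 0.23 (SE, adjusted p = 0.0133) over the 8 mice and of 1.28 ± 0.24 (adjusted p = 0.0050) over the 6, and its 8-mouse call was lost without SV450 (adjusted p = 0.0552). *Dnaja1*, an HSP40 co-chaperone, gave log2 fold changes of 0.75 (adjusted p = 0.0101) with 8 mice and 0.73 (adjusted p = 0.00271) with 6. *Hspa1a* and *Hspa1b* are near-identical copies, so the share of reads counted for each is uncertain. With 8 mice 2 of the 4 genes stayed called without SV450. With 6 mice edgeR kept 0 of 4 calls without SV479 and 0 without SV480 (highest adjusted p of *Hspa1b* = 0.128), and 1 with all 12 groups of mice in the fit.

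**Figure D2:**
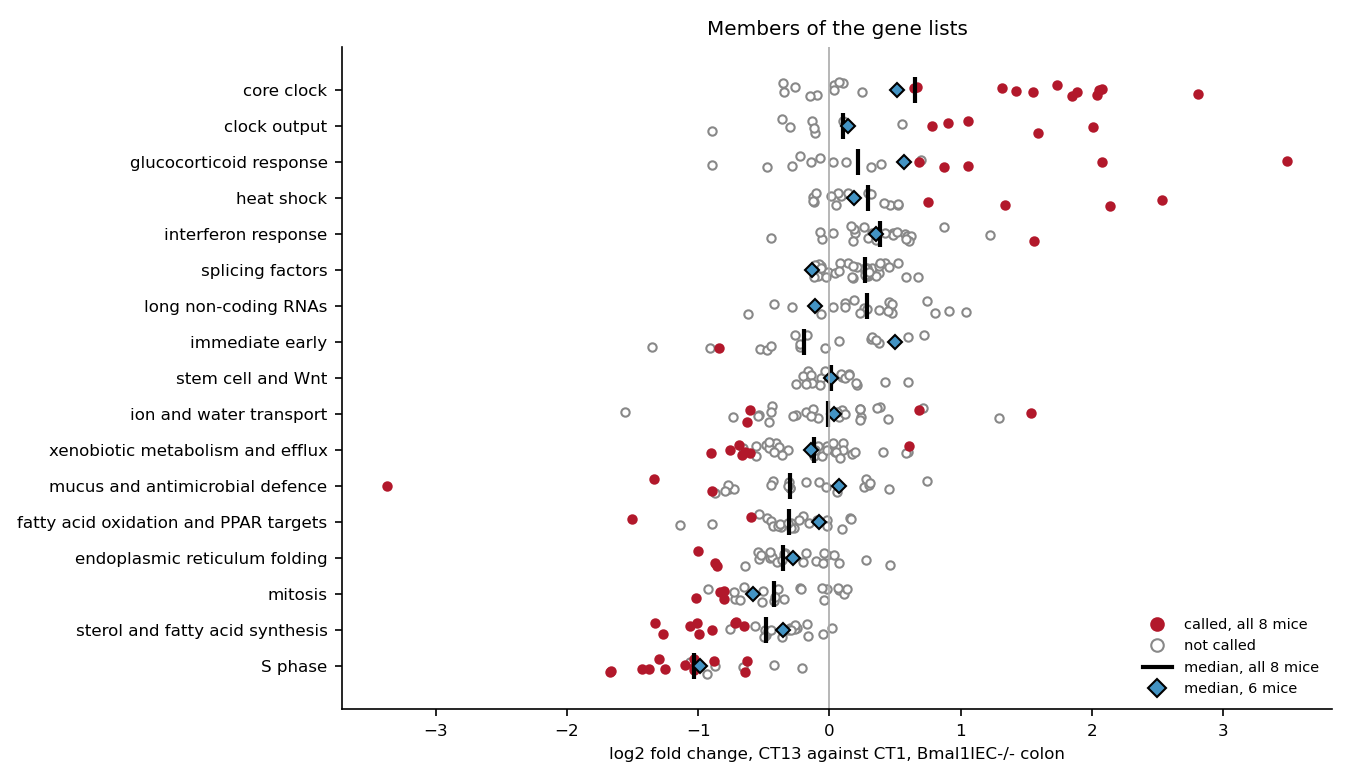
Log2 fold change between CT13 and CT1 (x axis) of every tested member of 17 gene lists (y axis) in the 8 *Bmal1*IEC-/- mice. Red points were called, open points were not, black bars are list medians with 8 mice and blue diamonds list medians with 6 mice. With 8 mice the core clock (median 0.66) and S phase (median -1.03) lists lie farthest from 0. With 6 mice S phase (-0.98), mitosis (-0.58) and glucocorticoid response (0.57) lie farther from 0 than the core clock (0.51). The medians of splicing factors, long non-coding RNAs, immediate early genes, mucus and antimicrobial defence, and ion and water transport change sign without SV384 and SV385.

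Among the remaining genes with the smallest adjusted p that were higher at CT13 in both fits were transporters and metabolic enzymes. *Cys1*, a cilium protein gene, read 4.21, 1.2, 2.47 and 3.47 CPM at CT1 and 14.4, 21.6, 19.6 and 18 CPM at CT13. *Cys1* gave a log2 fold change of 2.7 ± 0.29 (SE, adjusted p = 0.00112) over the 8 mice and of 2.62 ± 0.27 (adjusted p = 9.29e-05) over the 6. *Slc11a2* (DMT1), the iron importer of enterocytes, read 79.95, 63.1, 54.9 and 80.3 CPM at CT1 and 145, 163, 155 and 142 CPM at CT13. *Slc11a2* gave a log2 fold change of 1.13 ± 0.13 (SE, adjusted p = 0.00133) over the 8 mice and of 1.17 ± 0.12 (adjusted p = 0.000107) over the 6. The groups were apart in both genes. *Slc39a14* (ZIP14), a zinc and iron transporter, gave log2 fold changes of 0.97 (adjusted p = 0.00154) with 8 mice and 0.93 (adjusted p = 0.000375) with 6. *Gbe1*, the glycogen branching enzyme, gave log2 fold changes of 1.03 (adjusted p = 0.00299) with 8 mice and 0.97 (adjusted p = 0.000686) with 6. *Xdh*, xanthine dehydrogenase, gave log2 fold changes of 0.97 (adjusted p = 0.00435) with 8 mice and 0.79 (adjusted p = 0.000382) with 6. *Dnase1l2*, a DNase gene, gave log2 fold changes of 1.26 (adjusted p = 0.00142) with 8 mice and 1.24 (adjusted p = 0.000602) with 6. These 6 genes kept their calls with each of the 8 mice left out in turn.

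Many genes of DNA replication were lower at CT13. Of 20 tested members of the S phase list, 14 were lower at CT13 and 0 higher with 8 mice, all 20 had a negative log2 fold change, and the median was -1.03. With 6 mice 13 of 21 were lower (median -0.98). Of all genes, 1.75% were called lower with 8 mice and 2.51% with 6. Control colon had 11 of 20 members lower (median -0.77), against 10.5% of all genes. With single mice left out, 9 to 13 of the 14 genes stayed called with 8 mice, the fewest without SV449 or SV450, and 8 of the 13 with 6 mice without SV479. *Mcm6*, a subunit of the replicative helicase (chromosome 1, 128331590 to 128359664), read 82.9, 99.8, 103 and 104 CPM at CT1 and 46.1, 37.1, 42.1 and 37.3 CPM at CT13. All CT13 values were well under the lowest CT1 value, and the comparison gave a log2 fold change of -1.25 ± 0.12 (SE, adjusted p = 0.000655) over the 8 mice and of -1.34 ± 0.10 (adjusted p = 6.98e-06) over the 6. *Mcm7*, another subunit, read 73.5, 69.4, 75.2 and 74.4 CPM at CT1 and 38.8, 34.1, 35.8 and 33.4 CPM at CT13. *Mcm7* gave a log2 fold change of -1.03 ± 0.09 (SE, adjusted p = 0.000655) over the 8 mice and of -1.06 ± 0.10 (adjusted p = 5.19e-05) over the 6. *Dtl*, which directs the licensing factor CDT1 to degradation, read 20.7, 25, 23.6 and 21.6 CPM at CT1 and 7.3, 7.46, 6.77 and 7.05 CPM at CT13. *Dtl* gave a log2 fold change of -1.65 ± 0.15 (SE, adjusted p = 0.000655) over the 8 mice and of -1.65 ± 0.17 (adjusted p = 0.000103) over the 6. *Pclaf*, a PCNA-binding factor, gave log2 fold changes of -1.44 (adjusted p = 0.000655) with 8 mice and -1.43 (adjusted p = 5.29e-05) with 6. *Pola1*, the catalytic subunit of DNA polymerase alpha, gave log2 fold changes of -1.46 (adjusted p = 0.000955) with 8 mice and -1.51 (adjusted p = 0.000107) with 6. *Rrm1*, the large subunit of ribonucleotide reductase, gave log2 fold changes of -1.1 (adjusted p = 0.000955) with 8 mice and -1.18 (adjusted p = 5.19e-05) with 6. *Tyms*, thymidylate synthase, gave log2 fold changes of -0.88 (adjusted p = 0.00267) with 8 mice and -0.87 (adjusted p = 0.000818) with 6. *Pcna*, the sliding clamp, had log2 fold changes of -0.63 (adjusted p = 0.00668) with 8 mice and -0.57 (adjusted p = 0.00157) with 6 and fell under the fold threshold without SV384 and SV385. SV384 and SV385 lay with or near the other CT1 mice in these genes, above every CT13 mouse.

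Promoters of S phase genes were searched for the E2F motif, which was chosen after the S phase genes were known to differ. The forms searched on both strands were TTTGGCGC, TTTGCCGC, TTTCGCGC and TTTCCCGC, and matches can overlap. Of 17 S phase genes with a promoter, 7 held a match (41.2%), against 2.605% of all genes and 4.604% of tested genes. Of the 141 genes with a promoter that were lower at CT13 in both fits 24 held one (17.02%), and of the 71 that were higher 0 did. The 250 bases before the start of the 2 helicase subunit genes are shown with these matches in capitals.
Mcm6 (chr1:128359706-128359955, minus strand): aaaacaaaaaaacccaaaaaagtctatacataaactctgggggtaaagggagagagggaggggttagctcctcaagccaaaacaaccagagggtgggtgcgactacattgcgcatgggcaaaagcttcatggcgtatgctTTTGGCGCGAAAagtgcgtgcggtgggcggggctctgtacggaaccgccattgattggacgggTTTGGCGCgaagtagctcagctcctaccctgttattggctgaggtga
Mcm7 (chr5:138171884-138172133, minus strand): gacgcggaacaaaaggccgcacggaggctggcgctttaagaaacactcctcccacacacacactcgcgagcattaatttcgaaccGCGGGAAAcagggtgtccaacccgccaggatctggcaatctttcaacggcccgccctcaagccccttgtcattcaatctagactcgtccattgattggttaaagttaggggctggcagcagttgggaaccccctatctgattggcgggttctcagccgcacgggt
*Mcm6* held 3 matches, of which 2 overlap, and *Mcm7* held 1 in this window. A sterol regulatory element (TCACNCCAC, either strand), searched at the same time, was found in 1 of 18 sterol and fatty acid synthesis genes with a promoter, *Hmgcs1*, and in 1.44% of all genes.

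Fewer mitotic genes were called. Of 24 tested members 4 were lower with 8 mice (median -0.42) and 10 with 6 (median -0.58), and 0 were higher in either fit. Of all genes, 1.75% were called lower with 8 mice and 2.51% with 6. In control colon 23 of 24 were lower (median -1.57), against 10.5% of all genes. *Top2a*, topoisomerase II alpha, read 134, 123, 179 and 133 CPM at CT1 and 66.6, 59.95, 83.4 and 69.3 CPM at CT13. *Top2a* gave a log2 fold change of -1.01 ± 0.14 (SE, adjusted p = 0.00453) over the 8 mice and of -1.15 ± 0.13 (adjusted p = 0.000133) over the 6. *Kif11*, a spindle motor, gave log2 fold changes of -0.83 (adjusted p = 0.0114) with 8 mice and -0.82 (adjusted p = 0.00607) with 6. *Cdk1*, the mitotic kinase, gave log2 fold changes of -0.80 (adjusted p = 0.0199) with 8 mice and -0.66 (adjusted p = 0.0226) with 6. *Nusap1*, a spindle protein, gave log2 fold changes of -0.80 (adjusted p = 0.028) with 8 mice and -0.95 (adjusted p = 0.00208) with 6. *Cdk1* lost its 8-mouse call without SV395, SV448, SV449 and SV450 in turn (highest adjusted p = 0.0688) and *Nusap1* without SV384, SV395, SV448, SV449, SV450 and SV479 (highest adjusted p = 0.0969). With 6 mice, leaving out SV479 left SV480 as the only CT1 mouse, and the *Cdk1* log2 fold change was then -0.33. SV480 read 28.8 CPM in *Cdk1*, against 43.9 to 44.2 CPM in the other CT1 mice. *Kif11*, *Nusap1* and most of the list members also lost their calls without SV479. Of the 10 list members called with 6 mice, 6 stayed called without SV450, and with 8 mice 2 of the 4 stayed called without SV395, SV448, SV449 or SV450. *Ncapg2*, a condensin II subunit, gave log2 fold changes of -1.47 (adjusted p = 0.000655) with 8 mice and -1.46 (adjusted p = 9.92e-05) with 6. The linker histone gene *Hist1h1c* gave log2 fold changes of -1.51 (adjusted p = 0.00527) with 8 mice and -1.16 (adjusted p = 0.000898) with 6 as the only called member of 3 tested histone genes of replication, and its 6-mouse call was lost without SV479 (adjusted p = 0.0619).

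Some genes of sterol and fatty acid synthesis were lower at CT13. Of 27 tested members of the sterol and fatty acid synthesis list, 9 were lower and 0 higher with 8 mice, 26 had a negative log2 fold change, and the median was -0.49. With 6 mice 10 were lower and 0 higher (median -0.36). Of all genes, 1.75% were called lower with 8 mice and 2.51% with 6. In control colon 13 members were lower and 1 higher, against 10.5% and 9.64% of all genes. *Hmgcs1*, which makes HMG-CoA (chromosome 13, 119690379 to 119708260), read 155, 189, 228 and 191 CPM at CT1 and 77.6, 87.6, 76 and 73.9 CPM at CT13. *Hmgcs1* gave a log2 fold change of -1.27 ± 0.12 (SE, adjusted p = 0.000746) over the 8 mice and of -1.41 ± 0.09 (adjusted p = 4.98e-06) over the 6. *Insig1*, the sterol-sensing brake on SREBP processing, read 68.9, 65.2, 71.3 and 73.9 CPM at CT1 and 31.7, 30.6, 27.5 and 20.5 CPM at CT13. *Insig1* gave a log2 fold change of -1.33 ± 0.13 (SE, adjusted p = 0.000798) over the 8 mice and of -1.39 ± 0.14 (adjusted p = 7.83e-05) over the 6. The groups were well apart in both genes. *Msmo1*, a sterol demethylase, gave log2 fold changes of -1.01 (adjusted p = 0.00343) with 8 mice and -1.09 (adjusted p = 4.89e-05) with 6. *Idi1*, isopentenyl diphosphate isomerase, gave log2 fold changes of -1.06 (adjusted p = 0.00527) with 8 mice and -1.22 (adjusted p = 0.00017) with 6. The *Insig1* call of the 6-mouse comparison was lost with all 12 groups in the fit (adjusted p = 0.0881). Fatty acid oxidation and PPAR target genes had 2 of 24 members lower and 0 higher with 8 mice (median -0.31) and 1 lower with 6 (median -0.08). *Vnn1*, pantetheinase, gave log2 fold changes of -1.5 (adjusted p = 0.00779) with 8 mice and -1.1 (adjusted p = 0.00358) with 6, and lost its 6-mouse call without SV479 (adjusted p = 0.115). *Ehhadh*, a peroxisomal enzyme, gave log2 fold changes of -0.60 (adjusted p = 0.0415) with 8 mice and -0.34 (adjusted p = 0.0246) with 6 and was called with 8 mice only, and not without SV384, SV385, SV395, SV448, SV449 and SV450 in turn.

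A few chaperones of the endoplasmic reticulum, which fold secreted proteins, were lower at CT13. Of 24 tested members 3 were lower and 0 higher in both fits (medians -0.36 with 8 mice and -0.27 with 6). Of all genes, 1.75% were called lower with 8 mice and 2.51% with 6. In control colon 6 members were higher and 0 lower, against 9.64% and 10.5% of all genes. *Calr*, calreticulin, read 922, 1175, 979 and 903 CPM at CT1 and 602, 471, 504 and 580.5 CPM at CT13. *Calr* gave a log2 fold change of -0.87 ± 0.12 (SE, adjusted p = 0.00453) over the 8 mice and of -0.79 ± 0.09 (adjusted p = 0.000213) over the 6. *Pdia6*, a disulfide isomerase, gave log2 fold changes of -0.86 (adjusted p = 0.00453) with 8 mice and -0.71 (adjusted p = 0.000488) with 6. *Pdia3*, a related isomerase, had log2 fold changes of -0.53 (adjusted p = 0.0162) with 8 mice and -0.46 (adjusted p = 0.00298) with 6. *Hsp90b1*, the HSP90 of this compartment, had log2 fold changes of -0.54 (adjusted p = 0.0192) with 8 mice and -0.50 (adjusted p = 0.00669) with 6. Both were under the fold threshold. *Agr2*, the disulfide isomerase needed for mucin production, read 3683, 3744, 3541 and 2871 CPM at CT1 and 1778, 1745, 1881 and 1962 CPM at CT13. *Agr2* gave a log2 fold change of -0.90 ± 0.11 (SE, adjusted p = 0.00267) over the 8 mice and of -0.79 ± 0.08 (adjusted p = 0.000107) over the 6, and every CT13 mouse was below every CT1 mouse. It belongs to both the goblet cell markers, of which it was the only one called lower, and the mucus and antimicrobial defence list. The mucus and antimicrobial defence list had 3 of 24 members lower and 0 higher with 8 mice (median -0.30), against 1.75% and 1.07% of all genes. With 6 mice 3 were lower and 1 higher (median 0.07), against 2.51% and 1.78%. Of the 3 lower with 8 mice, 1 stayed called without SV448, SV449 or SV450, and the gene higher with 6 was not called without SV479 or SV480. The summed goblet cell markers were 18838 ± 1866 CPM at CT1 and 18669 ± 1616 CPM at CT13 (mean ± SD, n = 4).

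Some secretory and barrier genes varied more between mice. *Reg4*, a lectin of secretory cells, gave log2 fold changes of -1.33 (adjusted p = 0.0307) with 8 mice and -0.95 (adjusted p = 0.023) with 6 and lost its 8-mouse call without SV384, SV448, SV449 and SV450 in turn (highest adjusted p = 0.105) and its 6-mouse call without SV479 or SV480 (highest adjusted p = 0.20). *Sprr1a*, a cornified envelope gene of stressed epithelium, read 6.15, 49.6, 9.88 and 14.4 CPM at CT1 and 3.55, 0.746, 1.31 and 1.82 CPM at CT13. Apart from SV395, the CT13 values lay near the 0.626 to 0.971 CPM that 3 counts represent, so its fold change is imprecise. SV385 was the highest mouse by far, and the comparison gave a log2 fold change of -3.37 ± 0.69 (SE, adjusted p = 0.0241) over the 8 mice and of -2.65 ± 0.39 (adjusted p = 0.000977) over the 6. Without SV448, SV449 or SV450 the 8-mouse call was lost (highest adjusted p = 0.0933), and over the 8 single-mouse exclusions the log2 fold change ran from -3.90 to -2.40. *Clca4a*, a gene of the calcium-activated chloride channel regulator family with close paralogs, read 27.5, 218, 52.7 and 83.8 CPM at CT1 and 13.1, 9.95, 8.73 and 10.5 CPM at CT13. CT1 spread from 27.5 to 218 CPM and CT13 only from 8.73 to 13.1 CPM, without overlap. It gave a log2 fold change of -3.16 ± 0.55 (SE, adjusted p = 0.0129) over the 8 mice and of -2.67 ± 0.19 (adjusted p = 5.73e-06) over the 6, and the 8-mouse call was lost without SV448, SV449 or SV450 (highest adjusted p = 0.061; range of the log2 fold change -3.47 to -2.36) and kept in each exclusion from the 6.

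A pair of further genes with small adjusted p, both lower at CT13, is described next. *Nox1*, the superoxide-producing NADPH oxidase of the colon, read 27.8, 36.1, 26.9 and 33.6 CPM at CT1 and 9.81, 5.22, 7.2 and 5.91 CPM at CT13. *Nox1* gave a log2 fold change of -2.12 ± 0.21 (SE, adjusted p = 0.000746) over the 8 mice and of -2.08 ± 0.21 (adjusted p = 8.94e-05) over the 6. *Tmem236*, a membrane protein gene, read 108, 118, 143 and 122 CPM at CT1 and 49.9, 58, 49.6 and 56.4 CPM at CT13. *Tmem236* gave a log2 fold change of -1.19 ± 0.11 (SE, adjusted p = 0.000655) over the 8 mice and of -1.3 ± 0.10 (adjusted p = 6.98e-06) over the 6. In both genes CT13 values were under all CT1 values. Ion and water transport genes had 2 of 30 members higher and 2 lower with 8 mice (median -0.01), against 1.07% and 1.75% of all genes. With 6 mice 2 were higher and 1 lower (median 0.04), against 1.78% and 2.51%. With 8 mice 0 of the 4 stayed called without SV384, SV448, SV449 or SV450 and 2 without SV385, SV479 or SV395, and with 6 mice 0 of the 3 without SV479. *Car1*, the colonocyte carbonic anhydrase, read 14223, 16620.4, 12187 and 11667 CPM at CT1 and 8665, 8564, 9038 and 8829.6 CPM at CT13 and gave log2 fold changes of -0.63 (adjusted p = 0.0249) with 8 mice and -0.43 (adjusted p = 0.000648) with 6. Its CT1 values were highest in SV384 and SV385, and it was under the fold threshold with 6 mice, as was *Slc6a14*, an amino acid transporter (log2 fold change -0.61, adjusted p = 0.0348 with 8 mice, and -0.41, adjusted p = 0.0268 with 6). The 8-mouse call of *Car1* was lost without SV384, SV385, SV395, SV448, SV449 and SV450 in turn (highest adjusted p = 0.0951), and that of *Slc6a14* without SV384, SV385, SV448, SV449 and SV450 (highest adjusted p = 0.125). By limma both were under the fold threshold. *Best2*, a bestrophin bicarbonate channel of goblet cells, gave log2 fold changes of 1.54 (adjusted p = 0.0206) with 8 mice and 1.28 (adjusted p = 0.0297) with 6 and lost its 8-mouse call without SV384, SV395, SV448, SV449, SV450 and SV479 in turn and its 6-mouse call without SV450 or SV479 (highest adjusted p = 0.321). *Nr3c2*, the mineralocorticoid receptor, had log2 fold changes of -0.54 (adjusted p = 0.0162) with 8 mice and -0.42 (adjusted p = 0.00887) with 6, under the fold threshold. Xenobiotic metabolism and efflux genes had 1 of 35 higher and 6 lower with 8 mice, against 1.07% and 1.75% of all genes, and 2 higher and 2 lower with 6. Of the 6 lower, 1 stayed called without SV395, SV449 or SV450, 2 without SV384 or SV448, and 3 without SV385 or SV479. The higher gene was called without SV480 and in no other of the 8 exclusions. With 6 mice 0 of the 2 lower genes stayed called without SV479 or SV480 and 1 without SV395, SV449 or SV450, and 1 of the 2 higher without SV479, SV480, SV449 or SV450. *Ces1f*, a carboxylesterase, gave log2 fold changes of -0.68 (adjusted p = 0.00875) with 8 mice and -0.57 (adjusted p = 0.00206) with 6. *Cyp3a25*, a cytochrome P450, gave log2 fold changes of -0.90 (adjusted p = 0.0241) with 8 mice and -0.91 (adjusted p = 0.00963) with 6. Both belong to families of close paralogs, and *Ces1f* was under the fold threshold with 6 mice. *Cyp3a25* lost its 8-mouse call without SV384, SV395, SV449, SV450 and SV479 in turn (highest adjusted p = 0.0899) and its 6-mouse call without SV479 or SV480 (highest adjusted p = 0.162).

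**Figure D3:**
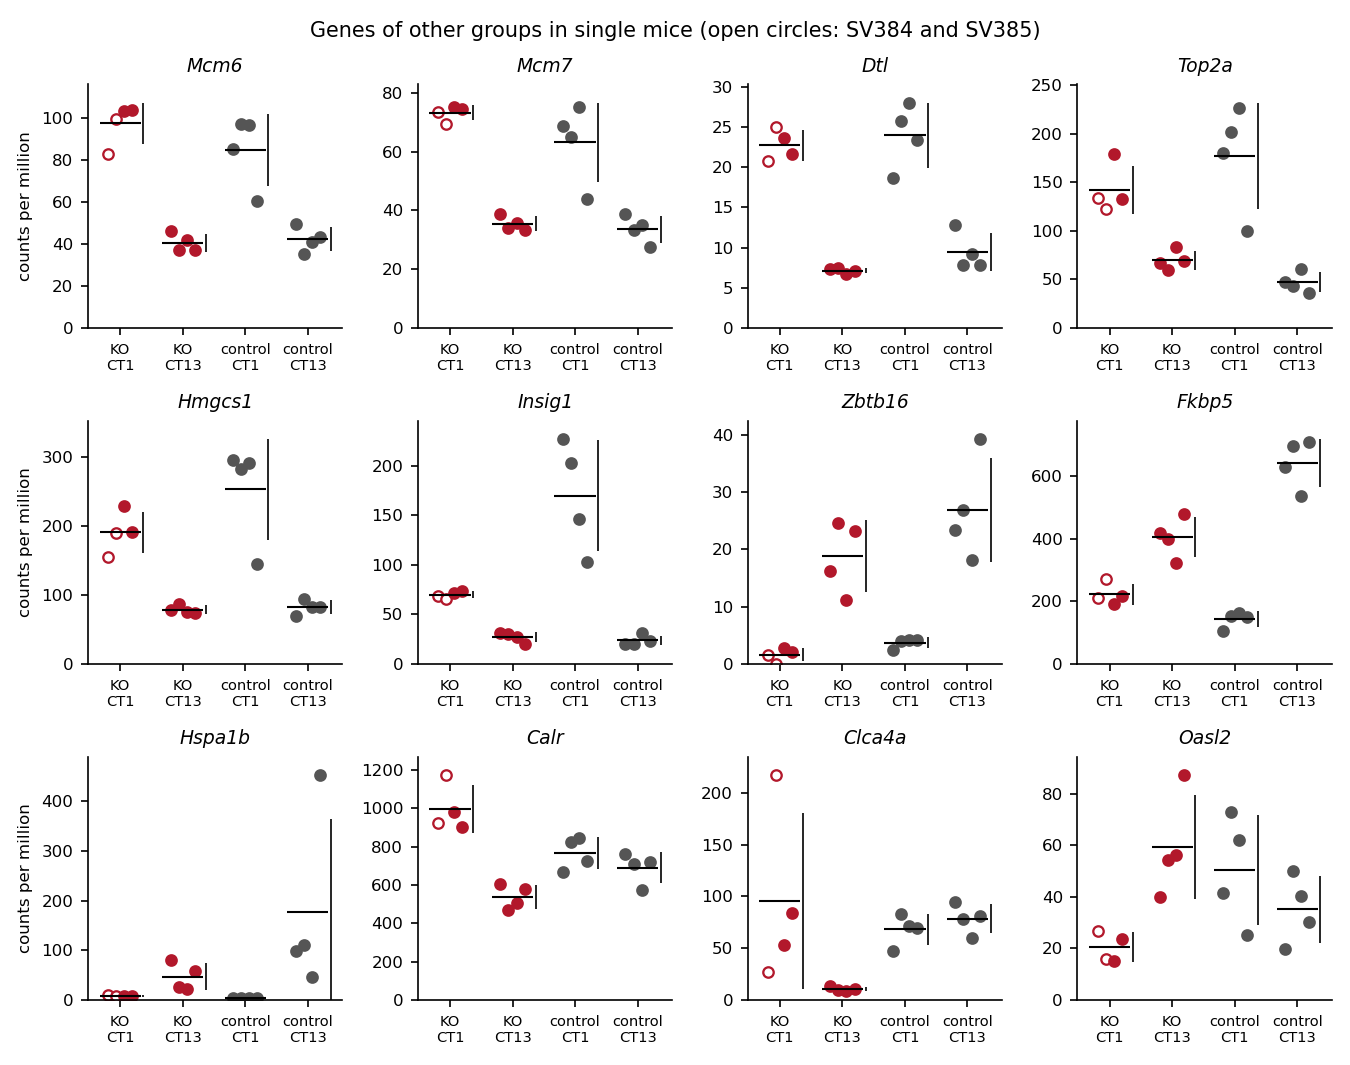
Expression of 12 genes of the other groups in single mice (y axis, CPM, each panel from 0), drawn as for the clock genes: KO in red, control in grey, lines for mean and SD of 4 mice, open circles for SV384 and SV385. *Mcm6*, *Mcm7*, *Dtl*, *Top2a*, *Hmgcs1*, *Insig1*, *Calr* and *Clca4a* were lower and *Zbtb16*, *Fkbp5*, *Hspa1b* and *Oasl2* higher at CT13 in every KO mouse than in any KO mouse at CT1.

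A few immune genes were called. Of all genes tested, 1.07% were called higher and 1.75% lower with 8 mice, and 1.78% and 2.51% with 6. Of 24 tested interferon response genes 1 was higher and 0 lower with 8 mice, although 21 had a positive log2 fold change (median 0.39), and 3 were higher with 6 mice (median 0.35), 0 of which stayed called without SV479. *Oasl2*, an interferon-induced antiviral gene, read 26.9, 15.9, 15.1 and 23.7 CPM at CT1 and 39.9, 54.2, 56.1 and 87.5 CPM at CT13. *Oasl2* gave a log2 fold change of 1.56 ± 0.25 (SE, adjusted p = 0.00875) over the 8 mice and of 1.62 ± 0.28 (adjusted p = 0.00269) over the 6, and its 6-mouse call was lost without SV479 (adjusted p = 0.111). *Stat2*, which carries the interferon signal, had log2 fold changes of 0.57 (adjusted p = 0.048) with 8 mice and 0.44 (adjusted p = 0.0423) with 6. Of 16 cytokine, chemokine and adhesion genes 0 were higher and 1 lower with 8 mice, and 1 was higher and 2 lower with 6. The called gene of the 8-mouse comparison was *Il18*, an epithelial cytokine (log2 fold change -0.74, adjusted p = 0.0241 with 8 mice, and -0.61, adjusted p = 0.0265 with 6), which lost its call without SV384, SV448, SV449 and SV450 in turn and, over the 6, without SV448, SV449, SV479 or SV480 (highest adjusted p = 0.218). By edgeR and by DESeq2, 0 of 7 MHC class II genes were called with 8 mice and 0 of 8 with 6 (0 with 8 mice and 2 with 6 at an unadjusted p under 0.05). Of 19 stem cell and Wnt genes, 0 were called by either tool in either fit (0 with 8 mice and 1 with 6 at an unadjusted p under 0.05), with medians of 0.01 in both.

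Some groups followed the 2 libraries that stood apart. The 33 splicing factor genes had a median log2 fold change of 0.27 with 8 mice and -0.13 with 6, with 0 called by edgeR or DESeq2 (5 with 8 mice and 13 with 6 at an unadjusted p under 0.05). The long non-coding RNAs had a median of 0.29 over 21 genes with 8 mice, 0 of them called, and of -0.11 over 24 genes with 6, 1 of them lower (3 with 8 mice and 5 with 6 at an unadjusted p under 0.05). *Tra2a*, a splicing activator, read 57.6, 51.4, 111 and 117 CPM at CT1 and 124, 134, 132 and 147 CPM at CT13, and *Ccnl2*, a cyclin of nuclear speckles, read 120.4, 129, 269.7 and 270.01 CPM at CT1 and 274, 308, 294 and 301 CPM at CT13. In both genes SV384 and SV385 were far below the other CT1 mice, which lay just below the CT13 mice. *Peg13*, an imprinted long non-coding RNA, was steadier, with log2 fold changes of 0.48 (adjusted p = 0.0213) with 8 mice and 0.46 (adjusted p = 0.0148) with 6, under the fold threshold. Immediate early genes had a median of -0.20 over 18 genes with 8 mice, with 0 higher and 1 lower, against 1.07% and 1.75% of all genes. Over 19 genes with 6 mice the median was 0.50, with 3 higher and 1 lower, against 1.78% and 2.51%. The lower gene with 8 mice was not called without SV384, SV479, SV448, SV449 or SV450, and of the 3 higher with 6, 1 stayed called without SV479 and 0 without SV480. *Egr1* read 32, 32.2, 12.6 and 11.2 CPM at CT1 and 9.81, 9.7, 9.61 and 4.77 CPM at CT13, high in SV384 and SV385, and gave log2 fold changes of -1.35 (adjusted p = 0.0691) with 8 mice and -0.48 (adjusted p = 0.281) with 6. Of the 18 marker lists for cell types and neighbouring tissues, those of smooth muscle (10 genes), endothelium (5), macrophages (6) and enteric neurons and glia (7) had 0 called members by edgeR in either fit (at an unadjusted p under 0.05, smooth muscle 0 with 8 mice and 5 with 6, endothelium 1 with 8 mice and 0 with 6, macrophages 0 with 8 mice and 3 with 6 and neurons and glia 1 with 8 mice and 0 with 6), and fibroblasts (6) had 0 with 8 mice and 1 higher with 6. The median of the smooth muscle markers was 0.26 with 8 mice and -0.06 with 6. The adipocyte markers had a median of 1.19 over 4 tested genes with 8 mice and 1.21 over 5 with 6, with 0 called by edgeR (1 with 8 mice and 3 with 6 at an unadjusted p under 0.05), and their summed level ran from 24.7 to 57.9 CPM at CT1 and from 28.4 to 150.6 CPM at CT13. No marker of B cells or neutrophils passed the filter on low counts. The part of these differences in the other results was not tested.

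The calls that changed with the 2 libraries can be seen gene by gene. All 100 genes called with 8 mice only were tested and had the same sign with 6, and of the 323 called with 6 mice only 308 were tested with 8 and 303 had the same sign. Because the fits share mice, this agreement in sign is largely built in. *Zfp598*, a ribosome quality control factor, had log2 fold changes of 0.62 (adjusted p = 0.00567) with 8 mice and 0.53 (adjusted p = 0.00154) with 6. *Dsg2*, a desmosomal cadherin, had log2 fold changes of -0.65 (adjusted p = 0.0087) with 8 mice and -0.56 (adjusted p = 0.000382) with 6. Both were under the fold threshold without the 2 libraries and also without SV385 alone. *Ltbp4*, an extracellular matrix protein, read 103, 28.9, 49.9 and 52.8 CPM at CT1 and 98.5, 92.8, 93.4 and 91.6 CPM at CT13. *Ltbp4* had log2 fold changes of 0.71 (adjusted p = 0.162) with 8 mice and 0.88 (adjusted p = 9.04e-05) with 6. SV384 was above all CT13 mice in this gene, whereas SV385 was the lowest mouse. *Alas1*, the first enzyme of haem synthesis, read 200.04, 268, 114 and 122 CPM at CT1 and 281, 202, 273 and 301 CPM at CT13, where SV384 lay just under and SV385 within the CT13 range. *Alas1* had log2 fold changes of 0.60 (adjusted p = 0.18) with 8 mice and 1.17 (adjusted p = 0.000148) with 6. *Gsn*, gelsolin, gave log2 fold changes of 0.63 (adjusted p = 0.0748) with 8 mice and 0.69 (adjusted p = 0.000313) with 6. Among genes lower at CT13, *Prss23*, a serine protease, read 52.4, 38.5, 79 and 80.3 CPM at CT1 and 46.1, 38.8, 29.9 and 34.6 CPM at CT13. *Prss23* had log2 fold changes of -0.74 (adjusted p = 0.0898) with 8 mice and -1.08 (adjusted p = 0.000304) with 6. *Ms4a12*, a colonocyte membrane protein, read 28.5, 32.2, 52.7 and 56.6 CPM at CT1 and 29.4, 21.1, 21.8 and 27.1 CPM at CT13 and gave log2 fold changes of -0.77 (adjusted p = 0.0802) with 8 mice and -1.12 (adjusted p = 0.000313) with 6. *Utp20*, a ribosome assembly factor, gave log2 fold changes of -0.69 (adjusted p = 0.0658) with 8 mice and -1.0 (adjusted p = 0.000211) with 6. *Trpm7*, a magnesium channel kinase, gave log2 fold changes of -0.54 (adjusted p = 0.0418) with 8 mice and -0.74 (adjusted p = 0.000148) with 6. In *Prss23* and *Ms4a12* the values of SV384 and SV385 lay within or near the CT13 range.

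Most genes that differed by time in *Bmal1*IEC-/- colon moved the same way in control colon, which shares no mice with it. Of the 97 genes higher at CT13 in both fits, 94 were tested in control colon, 88 had a positive log2 fold change there and 68 were called higher. Of the 175 lower genes, 172 were tested, 166 had a negative value, 124 were called lower and 1 was called higher. Among all 13320 genes tested in control colon, 9.64% were called higher and 10.5% lower, and the median log2 fold change was -0.00815. The median log2 fold change of the higher genes was 0.98 in both genotypes, and of the lower genes -1.004 in *Bmal1*IEC-/- and -0.98 in control colon. The members of the set were selected on their *Bmal1*IEC-/- values.

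Whether the CT13 to CT1 difference depended on genotype was tested as an interaction, given as the *Bmal1*IEC-/- minus the control log2 fold change. Over all 16 mice 1470 of 13863 genes had an adjusted p under 0.05 (10.6%), and without SV384 and SV385 717 of 14364 did (4.99%), with 623 in common. Of the 97 higher genes 24 and of the 175 lower genes 25 were among the first, and 19 and 15 among the second. Of the 22 core clock genes 12 and 13 were among them. Single mice moved these counts: over 16 exclusions the count ran from 741 (without control SV397 at CT13) to 2288 (without SV480), and over 14 exclusions without SV384 and SV385 from 131 (without SV480) to 1210 (without control SV469 at CT1).

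Several clock genes differed by genotype. *Arntl* fell by 3.09 on the log2 scale in control colon and was not called over the 8 *Bmal1*IEC-/- mice, an interaction of 2.83 ± 0.29 (SE, adjusted p = 3.65e-05) over 16 mice and 2.47 ± 0.22 (adjusted p = 3.11e-06) without the 2. *Npas2* went from 57 ± 1.09 to 18 ± 2.14 CPM in control colon and from 67.1 ± 5.26 to 79.2 ± 4.86 CPM in *Bmal1*IEC-/- colon (mean ± SD, n = 4; interaction 1.91 ± 0.14, adjusted p = 2.61e-07). *Per2* rose in both, from 10.04 ± 2.72 to 203 ± 40.7 CPM in control colon, and its rise was smaller in *Bmal1*IEC-/- colon (interaction -2.91 ± 0.28, adjusted p = 1.85e-05). The same held for *Tef* (-1.86 ± 0.22, adjusted p = 0.000124), *Dbp* (-1.85 ± 0.35, adjusted p = 0.00626) and *Per1* (-1.87 ± 0.42, adjusted p = 0.0124). For *Per3* the interaction was -0.98 ± 0.35 (adjusted p = 0.0782) over 16 mice and -1.53 ± 0.26 (adjusted p = 0.00388) without SV384 and SV385. *Hlf*, with log2 fold changes of 2.81 in *Bmal1*IEC-/- and 1.98 in control colon, had an interaction adjusted p of 0.107, and *Nr1d2* of 0.401. *Nr1d1* was not called in control colon (31.9 ± 9.52 and 37.1 ± 5.04 CPM at CT1 and CT13), where its level exceeded that of *Bmal1*IEC-/- colon at both times, and rose in *Bmal1*IEC-/- colon (interaction 1.5 ± 0.34, adjusted p = 0.0123), a call that was lost without SV384 and SV385 (adjusted p = 0.0694) and by limma voom with quality weights (adjusted p = 0.0709).

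Genes outside the core loop differed by genotype as well. *Cldn8*, a tight junction claudin, fell from 85.3 ± 9.96 to 16.2 ± 4.83 CPM in control colon and read 206, 256, 167 and 164 CPM at CT1 and 145, 179, 144 and 198 CPM at CT13 in *Bmal1*IEC-/- colon, with an interaction of 2.15 ± 0.25 (adjusted p = 0.000124). The 8 *Bmal1*IEC-/- mice overlapped between times and all lay above the control means. *Slc8a1*, the sodium and calcium exchanger, fell in control colon and was not called in *Bmal1*IEC-/- colon (interaction 1.05 ± 0.12, adjusted p = 0.000116). *Usp2* rose less than in control colon (interaction -2.66 ± 0.30, adjusted p = 0.000116), as did *Fkbp5* (-1.29 ± 0.20, adjusted p = 0.00201) and *Hsph1* (-1.96 ± 0.44, adjusted p = 0.0125). *Insig1* fell less (1.5 ± 0.29, adjusted p = 0.00678), a call lost with all 12 groups in the fit (adjusted p = 0.0583). *Clca4a* read 68.2 ± 14.9 CPM at CT1 and 78.3 ± 14 CPM at CT13 in control colon, so that its fall had an interaction of -3.36 ± 0.60 (adjusted p = 0.00471), and -2.89 ± 0.28 (adjusted p = 7.10e-06) without the 2. *Calr* (-0.73 ± 0.16, adjusted p = 0.0123) and *Oasl2* (2.09 ± 0.45, adjusted p = 0.00999) differed in the same test, with control log2 fold changes of -0.14 and -0.54.

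**Figure D4:**
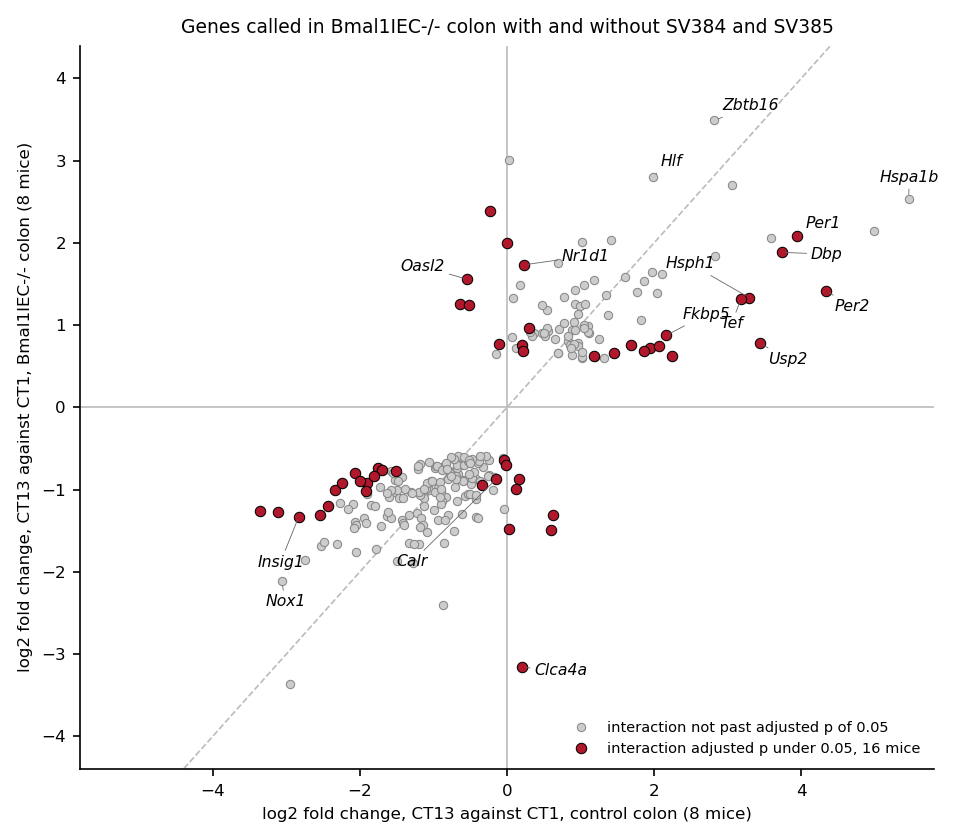
Log2 fold change between CT13 and CT1 in control colon (x axis, 8 mice) and in *Bmal1*IEC-/- colon (y axis, 8 mice) for the 266 genes that were called in *Bmal1*IEC-/- colon with and without SV384 and SV385 and tested in control colon. Red points had an interaction adjusted p under 0.05 over 16 mice and the dashed line marks equal values. Most points lie in the quadrants of equal sign, *Per2*, *Tef*, *Usp2* and *Insig1* lie farther from 0 on the x axis than on the y axis, and *Clca4a*, *Oasl2*, *Calr* and *Nr1d1* the reverse.

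The 2 times belong to longer courses over 6 circadian times with 4 mice each. In *Bmal1*IEC-/- colon *Arntl* stayed at mean levels of 32 ± 1.75 CPM at CT5, 29.6 ± 8.0 at CT9, 31.1 ± 2.71 at CT17 and 36.1 ± 2.68 at CT21 (± SD), near its values at CT1 and CT13. *Hlf* was highest at CT9 (29.1 ± 4.41 CPM, against 29.6 ± 7.15 in control colon). *Dbp* also had its highest mean at CT9, 33.1 ± 13.9 CPM in *Bmal1*IEC-/- and 96.6 ± 24.3 CPM in control colon, with lower means at CT13. *Zbtb16* had its highest mean at CT13, 18.8 ± 6.28 CPM in *Bmal1*IEC-/- colon, with means of 1.62 to 5.82 CPM at the others. *Mcm6* had its lowest mean at CT13 in both genotypes and its highest at CT1 in *Bmal1*IEC-/- colon and at CT21 (94.8 ± 13.9 CPM) in control colon. These levels are described without a test.

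**Figure D5:**
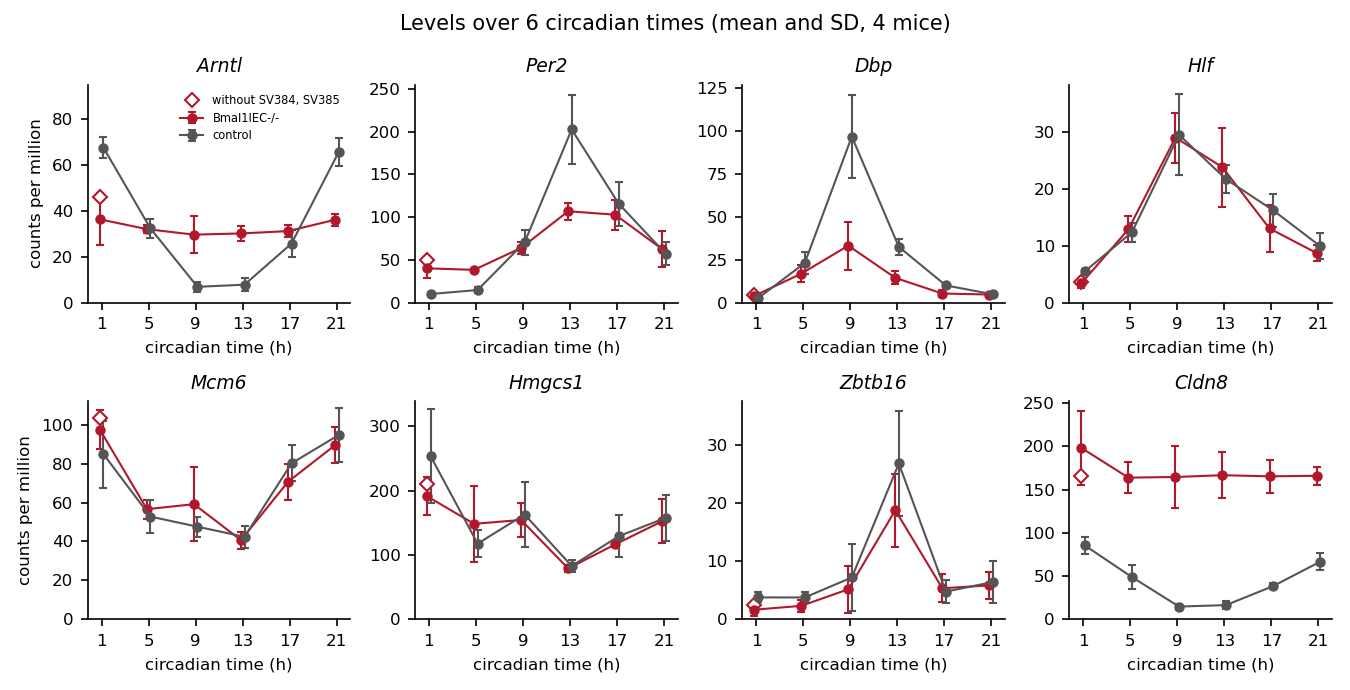
Mean level and SD over 4 mice (y axis, CPM) of 8 genes at 6 circadian times (x axis, hours) in *Bmal1*IEC-/- (red) and control colon (grey), with open diamonds for the CT1 mean without SV384 and SV385. Control *Arntl* and *Cldn8* are lowest at CT9 and CT13, while *Bmal1*IEC-/- *Cldn8* stays between 164 and 198 CPM. In both genotypes *Hlf* is highest at CT9, *Zbtb16* highest at CT13, and *Mcm6* and *Hmgcs1* lowest at CT13.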

How the data were processed

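RNA from whole colon was sequenced with the TruSeq Stranded mRNA kit in paired-end mode, and the methods name rRNA depletion with that kit. Per the submitters' processing notes and methods, the authors used FastQC 0.11.5, Trimmomatic 0.39, STAR 2.7.5c, SAMtools 1.3.1 and featureCounts 1.4.6 on mm10 and deposited raw counts per gene for 48 mice. DESeq2 1.22.0 was their test. The strand setting of the counting is not given in the sources used here, so overlapping antisense genes cannot be told apart. Reads of near-identical genes may be split or lost. Every sample column was mapped to a mouse. Replicates were separate mice, grouped by the labels.

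From the deposited counts, edgeR 4.0.16 (R 4.3.3) was run with TMM scaling, filterByExpr and the quasi-likelihood F test on the 4 CT13 and 4 CT1 *Bmal1*IEC-/- mice, on the 6 without SV384 and SV385, on the control mice, and with a genotype by time term. Calls needed a Benjamini-Hochberg adjusted p under 0.05 and a fold change of at least 1.5, and interactions the adjusted p alone. SE was taken from the log2 fold change and its F. The code was tested on simulated counts. Alternatives were DESeq2 1.42.0, limma 3.58.1, other scaling and filters, all 12 groups, and leaving out each mouse. The members and the 21 pathway and 18 marker lists (620 symbols, 3 not matched) were chosen with earlier results of these data known. Genes were named as core clock members, as the 10 genes per direction with the smallest adjusted p called in both fits, as the 4 members with the smallest p of every other pathway list, as the 6 smallest interactions of each fit, and as the 4 per direction called in 1 fit alone; not every gene so named is described, and 1 gene is not reported here. Symbols and positions came from GENCODE vM21 and promoters from RefSeq (GRCm38.p6). Motifs for E2F and the sterol element were chosen after seeing the data.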

Additional observations from a re-analysis of the deposited data

Results flagged for a closer look

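In 216 groups of 4 mice checked with Dixon's test at the 95% level, 14 held 1 mouse far from the others (6.48%), and chance alone gives about 1 in 20. Most belonged to the 2 libraries that stood apart or to SV480. At CT1, SV385 was apart in *Dbp* (2.71 CPM), *Stat2* (28.9 CPM, below the others) and *Dsg2* (645 CPM, above them), and in the summed markers of smooth muscle (1063 CPM) and skeletal muscle (8.72 CPM). SV384 was apart in *Hspa1b* (10.4 CPM), *Msmo1* (104.9 CPM), the goblet cell markers (16079 CPM) and its total of 3271891 counts. SV480 was apart in *Cdk1* (28.8 CPM, below the others) and *Best2* (4.27 CPM, above them). At CT13, SV449 was apart in *Usp2* (47.4 CPM) and *Peg13* (60.5 CPM), and SV450 in *Egr1* (4.77 CPM).

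A dependence of the CT13 to CT1 difference on genotype was looked up for 33 of the 85 genes described. By edgeR's interaction test over 16 mice, 31 of them had an adjusted p under 0.05, against 1470 of all 13863 genes (10.6%). Some of the 33 were named because their interaction p was among the smallest, so their share is set by that choice. The interaction is the *Bmal1*IEC-/- minus the control log2 fold change. It was positive for *Arntl* (2.83), *Npas2* (1.91), *Cldn8* (2.153), *Slc8a1* (1.05), *Insig1* (1.502), *Nr1d1* (1.497), *Oasl2* (2.09), *Xdh* (0.67), *Top2a* (0.898), *Kif11* (0.98), *Nusap1* (1.27), *Peg13* (0.403), *Prss23* (1.02) and *Ms4a12* (1.29). It was negative for *Per2* (-2.91), *Per1* (-1.87), *Dbp* (-1.85), *Tef* (-1.86), *Usp2* (-2.66), *Fkbp5* (-1.29), *Hsph1* (-1.96), *Calr* (-0.73), *Clca4a* (-3.36), *Cry1* (-0.95), *Cry2* (-0.82), *Dnaja1* (-1.31), *Hsp90b1* (-0.61), *Car1* (-0.64), *Ces1f* (-0.46), *Alas1* (-2.03) and *Zfp598* (-0.49). Their adjusted p ran from 2.61e-07 for *Npas2* to 0.0495 for *Top2a*. Without SV384 and SV385 the adjusted p was over 0.05 for *Nr1d1*, *Top2a*, *Kif11*, *Nusap1*, *Car1*, *Ces1f*, *Peg13* and *Prss23* (0.0522 for *Car1* to 0.154 for *Top2a*). The last 7 of these and *Zfp598* also lost the call in at least 1 of the 16 exclusions of single mice.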

How the results depend on the processing

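Of 1442 alternative values for the 85 genes described with 8 mice, 1296 kept direction and side of the threshold, 98 lost and 47 gained the call, and 1 changed sign. With 6 mice the figures were 1187 of 1272, 58, 25 and 2. The interactions of 33 genes kept 708 of 791 values over 16 mice, where 83 lost the call, and 629 of 725 without SV384 and SV385, where 60 lost and 27 gained it and 9 changed sign. The changes of sign concerned genes near 0 that were not called: *Slc8a1* with 8 mice (-0.101 to 0.0056 leaving out 1 mouse, positive without SV480) and *Cldn8* with 6 (-0.0792 to 0.0792, negative without SV448 or SV450). All 9 changed interactions were those of *Nr1d2* without the pair, near 0 and not called (-0.015; 0.00605 with all 12 groups in the fit, 0.00273 with a stricter filter on low counts, and -0.193 to 0.0965 leaving out 1 mouse). The counts of calls moved more, and the cause was not tested. With all 12 groups in the fit, 488 genes were higher and 449 lower with 8 mice, 151 and 193 with 6, and 241 had an interaction without the pair. Besides *Insig1*, *Dnaja1* and *Hsph1*, other described genes lost their 6-mouse call in that fit. They were *Arntl*, *Nr1d1*, *Bhlhe41*, *Usp2*, *Kif11*, *Cdk1*, *Reg4*, *Cyp3a25*, *Oasl2*, *Il18* and *Ltbp4*. edgeR's adjusted p was then 0.0515 for *Nr1d1*, 0.0602 for *Arntl* and 0.0838 for *Ltbp4*. limma with quality weights gave 250 higher and 356 lower with 8 mice and 1295 interactions without the pair. Without a filter on low counts 293 were higher with 8 mice, 388 with 6, and 1178 had an interaction without the pair. Testing against a fold change of 1.2 left 47 higher and 97 lower with 8 mice and 126 and 229 with 6. The adjusted p alone gave 218 and 365 with 8 mice and 633 and 744 with 6. DESeq2 gave 194 higher and 303 lower with 8 mice.

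Leaving out 1 mouse at a time gave 38 to 219 higher and 81 to 304 lower genes with 8 mice, 48 to 305 higher and 102 to 411 lower with 6, 741 to 2288 interactions over 16 mice, and 131 to 1210 without the pair. With 6 mice, leaving out SV479 or SV480 left 1 CT1 mouse, which was assumed to vary like the CT13 mice. No paired analysis was possible because each mouse has its own number and no number is shared between groups. At 3271891 counts or more per library, 3 counts correspond to at most 0.971 CPM, so a difference of a gene below that level may not be detectable.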

Other observations

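A small set of genes was called in *Bmal1*IEC-/- colon with and without SV384 and SV385, was not called in control colon, and had an interaction adjusted p under 0.05 in both fits. These 10 genes were chosen after their values were seen. In control colon *Xdh*, *4931406C07Rik* and *Pik3ip1* passed the adjusted p and missed the call by the fold threshold alone. Their control log2 fold changes by edgeR were 0.30 (adjusted p = 0.00976), -0.34 (adjusted p = 0.00782) and -0.51 (adjusted p = 0.0237). The 5 that were higher at CT13 were *Oasl2*, *Xdh*, *Ddx60*, *Parp14* and *Pik3ip1*. *Ddx60*, an interferon-induced helicase gene, had a log2 fold change of 1.26 in the 8 *Bmal1*IEC-/- mice and of -0.64 in control colon (interaction 1.897, adjusted p = 0.00897). *Parp14*, an ADP-ribosyltransferase gene also induced by interferon, had 0.77 and -0.11 (interaction 0.88, adjusted p = 0.0113). *Pik3ip1*, a negative regulator of PI3 kinase, had 1.24 and -0.51 (interaction 1.76, adjusted p = 0.00209).

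The 5 that were lower at CT13 were *Calr*, *Clca4a*, *4931406C07Rik*, *Emp1* and *Slc2a5*. *Slc2a5*, the fructose transporter GLUT5, had a log2 fold change of -1.49 in *Bmal1*IEC-/- colon and of 0.59 in control colon (interaction -2.08, adjusted p = 0.0104). It read 4.21, 3.01, 4.11 and 2.93 CPM at CT1 and 1.25, 1.24, 1.31 and 1.14 CPM at CT13 in *Bmal1*IEC-/- colon. The CT13 values lay near the 0.626 to 0.971 CPM that 3 counts represent, and edgeR's adjusted p with 6 mice was 0.0409. *Emp1*, an epithelial membrane protein gene, had -0.70 and -0.01 (interaction -0.69, adjusted p = 0.0412). *4931406C07Rik* had -0.95 and -0.34 (interaction -0.61, adjusted p = 0.0206). Of 68 immunoglobulin variable genes tested with 8 mice, 3 were lower at CT13 (4.41%, against 1.75% of all genes) and 0 higher, and of 94 tested with 6 mice 10 were lower (10.6%, against 2.51%) and 0 higher. With 6 mice a gene could pass the low-count filter through SV479 and SV480 alone, which are the CT1 group there. The 6-mouse share therefore cannot be read as a difference between times, and its dependence on single mice was not tested. Of 4 tested plasma cell markers 0 were called in either fit. Reads of these near-identical genes may be split between copies.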
